A study of Mus musculus with 18 samples.

Results

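The immunity-related GTPases (IRGs) are a family of interferon-inducible proteins that defend cells against microbes living inside vacuoles, and their messenger RNAs were followed here in mouse eosinophils. The genes were chosen by name from the family: Irgm1, Irgm2, Igtp, Iigp1, Tgtp1, Tgtp2, Ifi47, Gm12185, Gm12250 and Gm4951. These are 10 of the 55029 genes listed for the libraries with E. coli and IFN-γ and of the 54232 listed for the libraries with IL-4.

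IRG proteins are made after IFN-γ binds its receptor, whose signal leads to transcription factors such as IRF1. The effectors (Iigp1, Tgtp1, Tgtp2, Ifi47, Gm12250 and related proteins) load onto the membrane around an intracellular parasite or bacterium, oligomerise in their GTP-bound form and break it. The regulators Irgm1, Irgm2 and Igtp carry a methionine in place of the usual lysine in the nucleotide-binding motif, sit on the cell's own membranes and keep the effectors inactive there, while proteins of the ATG8 conjugation machinery of autophagy help to place the effectors on the right membrane.

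The study asked how bulk RNA of eosinophils changed with type 1 and type 2 stimuli. Eosinophils came from the peritoneal cavity of C57BL/6 mice that overexpress Il5, a transgene that raises eosinophil numbers and that control cells carried too. They were enriched by removing Thy1.2-positive and B220-positive cells and cultured for 18 hours without stimulus, with heat-inactivated E. coli, with 50 ng/ml IFN-γ, with IFN-γ and E. coli together, or with 100 ng/ml IL-4. There were 18 libraries in 6 groups of 3. Unstimulated libraries a, b and c were taken with those given E. coli or IFN-γ, together called the 12-library set, and unstimulated libraries d, e and f with those given IL-4, called the IL-4 set. This division was inferred from the layout of the files and is not stated in the labels. A stimulus was set against the unstimulated cells of the same set, except in an alternative that took all 6 unstimulated libraries as one group. The study calls the replicates biological, but the labels do not say whether the 3 libraries of a group came from separate mice or cultures, so p-values measure only the spread between these samples.

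Counts assigned to genes ran from 1523808 to 2734041 a library in the 12-library set and from 3625036 to 6482289 in the IL-4 set. Values are given as normalized CPM, each gene's counts as a rate (CPM) after scaling of library sizes within a set. A level of 3 counts, used as the floor, was 1.10 to 1.97 CPM in the first set and 0.463 to 0.828 CPM in the second. The sets also differed in kind. In the first, the most abundant gene of a library had a median of 4093 counts whatever the depth, an apparent ceiling, and the 10 most abundant genes held 1.495% to 2.61% of the counts, whereas the IL-4 set reached 87377 to 191131 counts for its most abundant gene and 13.5% to 15.8% for its top 10. Levels are therefore not compared between sets outside that alternative. Unstimulated library e stood apart from d and f: the chi-square per gene was 21.4 between d and e and 19.8 between e and f, against 7.17 between d and f. For the IRG genes tested, calls with IL-4 are given with and without library e, and for other genes only with it.

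The cell type was checked against 10 eosinophil markers. Their summed level was 4324 CPM on average in unstimulated a to c, 3389 with E. coli, 4041 with IFN-γ, 3098 with both, 5489 in unstimulated d to f and 5123 with IL-4, with the lipoxygenase Alox15 or the eotaxin receptor Ccr3 as the most abundant. Siglecf, the surface lectin used to identify mouse eosinophils, was found at 1020 ± 127 CPM (SD, n = 3) in unstimulated a to c. The granule protein genes Epx and Prg3 were at 1.43 and 1.08 CPM in the same group, near the floor. Of the 6 eosinophil markers tested in the 12-library set, 2 were lower and 1 higher with E. coli, 4 were lower with IFN-γ, and 4 were lower and 1 higher with both. With IL-4, 4 of 10 were higher and 1 lower. Markers of other cells were present as well. In bulk RNA, fewer cells of a type and less RNA per cell cannot be told apart.

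Of the 10 IRG genes, 9 had enough counts to be tested in the 12-library set and 8 in the IL-4 set. Tgtp1 was not tested in either set, nor Tgtp2 in the IL-4 set. Tgtp2 and Gm12185 passed the filter only through the libraries that received IFN-γ, and Gm12250 passed in the IL-4 set only through the IL-4 libraries, so in those comparisons these genes had to differ in level.

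**Figure D1:**
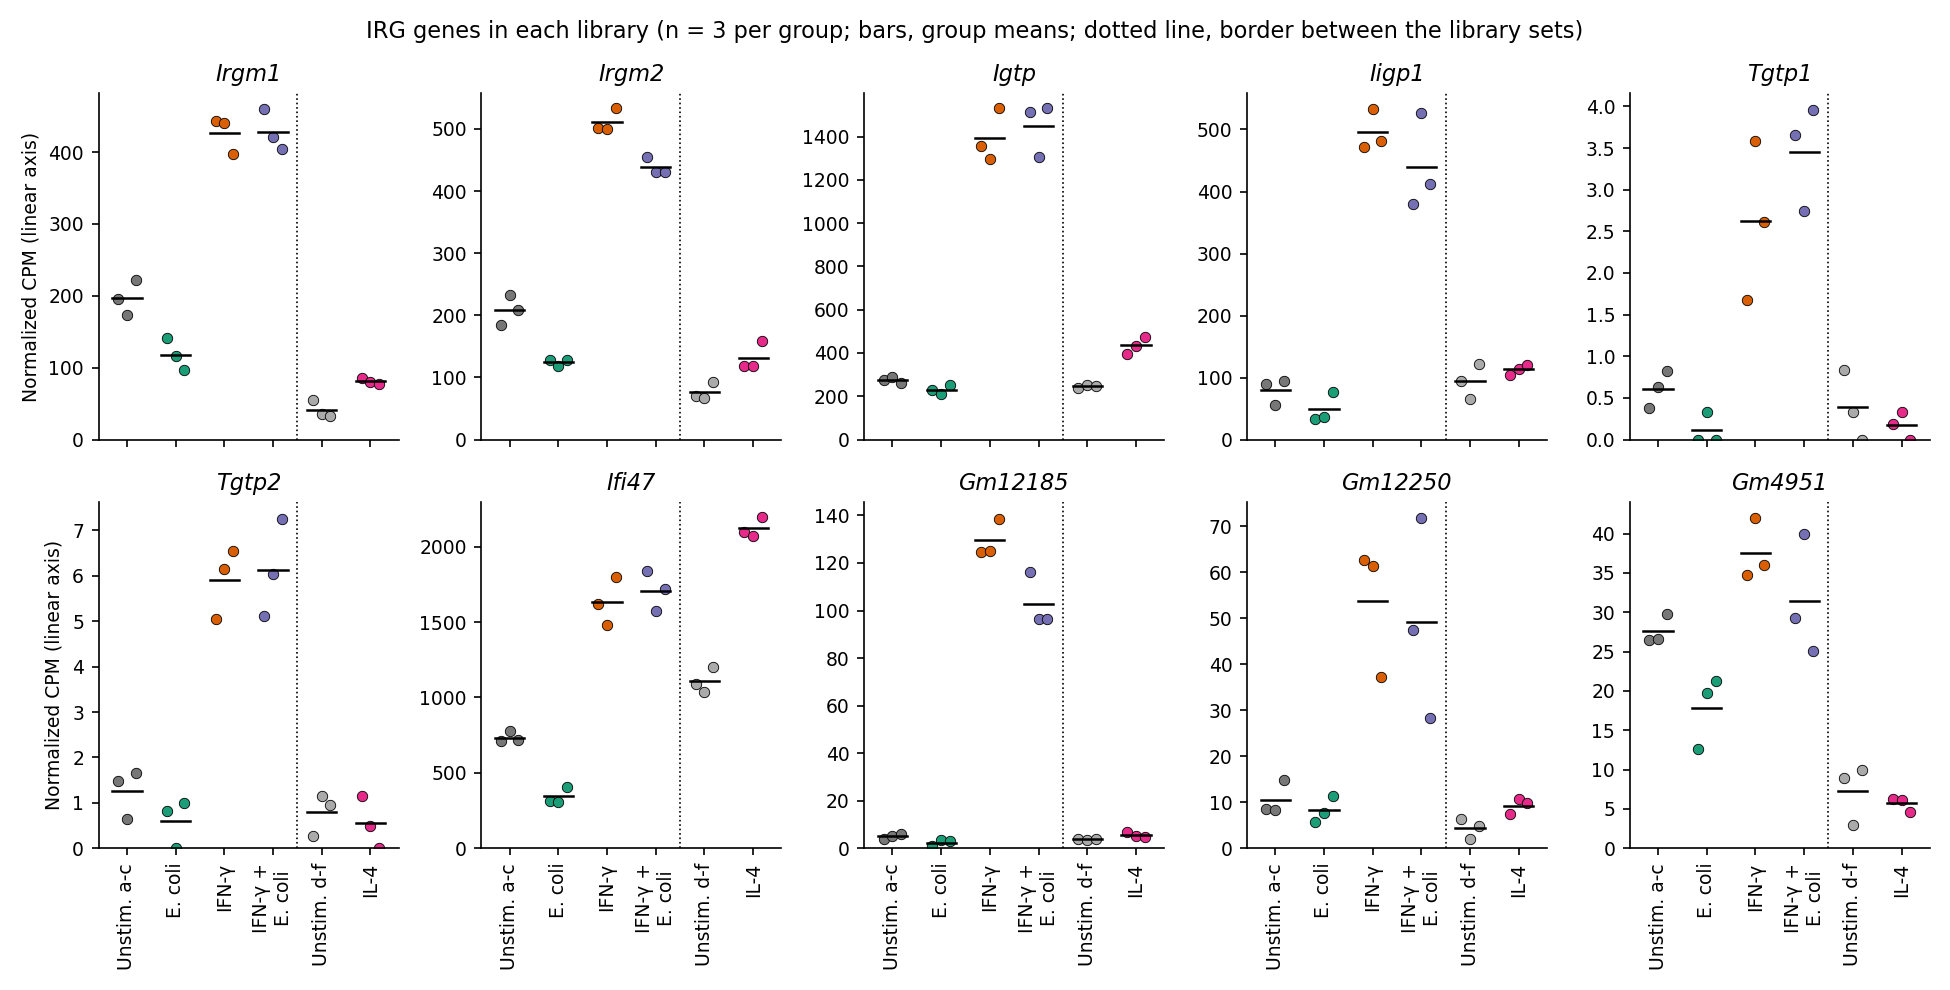
Normalized CPM (linear axis) of each of the 10 IRG genes in every library, with points for libraries, bars for means of 3 libraries, and a dotted line between the 2 sets, which were normalized separately. With IFN-γ, alone or with E. coli, Igtp lay between 1296 and 1533 CPM against 263 to 288 in unstimulated a to c.

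IFN-γ raised regulators and effectors together. Among the regulators, Irgm1, which guards the cell's own membranes and takes part in autophagy, was found at 195, 174 and 222 CPM in unstimulated a, b and c and at 443, 440 and 397 CPM in the 3 IFN-γ libraries. The lowest IFN-γ library was far above the highest unstimulated library. The log2 fold change was 1.11 (SE 0.13, adjusted p = 2.16e-06). Unless another tool is named, adjusted p-values come from the quasi-likelihood test of edgeR, with Benjamini-Hochberg adjustment over all genes tested, and 0.05 is the threshold for calling a gene. Irgm2, a second regulator found on the Golgi apparatus, was at 184, 233 and 209 CPM without stimulus and at 502, 500 and 534 CPM with IFN-γ. Its groups did not overlap either, and its log2 fold change was 1.30 (SE 0.11, adjusted p = 2.81e-08). Igtp, the third regulator, resident on the endoplasmic reticulum, went from 274, 288 and 263 CPM to 1356, 1296 and 1532 CPM. This rise, 2.34 on the log2 scale (SE 0.12, adjusted p = 3.67e-11), was larger than that of the other regulators.

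The effectors covered a wider range. Iigp1, the best studied effector of the family, was found at 89.8, 55.8 and 94.2 CPM without stimulus and at 471, 533 and 481 CPM with IFN-γ. All 3 IFN-γ libraries were well above all 3 unstimulated libraries, with a log2 fold change of 2.61 (SE 0.23, adjusted p = 5.65e-08). Ifi47, another effector, was found at 709, 775 and 717 CPM without stimulus and at 1620, 1482 and 1796 CPM with IFN-γ. Its groups were separated, and the rise was 1.15 on the log2 scale (SE 0.13, adjusted p = 1.09e-06). Both Ifi47 (2746 to 2894 counts with IFN-γ) and Igtp (2343 to 2528 counts) came near the apparent ceiling on counts. With counts corrected for such a ceiling, an alternative added after seeing the data, the log2 fold changes became 1.59 and 2.84.

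Gm12185 moved from close to the floor. It was at 4.10, 5.07 and 6.19 CPM (8 to 15 counts) in the unstimulated libraries and at 125, 125 and 139 CPM (212 to 244 counts) with IFN-γ. Its log2 fold change of 4.65 (SE 0.21, adjusted p = 9.47e-12) was the largest of the 9 IRG genes tested. Gm12185 passed the filter only through libraries with IFN-γ, so it had to differ in level to be tested. Gm12250, whose product coats vacuoles and bacteria, was found at 8.57, 8.24 and 14.9 CPM without stimulus and at 62.7, 61.5 and 37.3 CPM with IFN-γ. IFN-γ library 3 was lower than the other 2 but still above every unstimulated library, and the log2 fold change was 2.33 (SE 0.32, adjusted p = 1.78e-05). Gm4951 changed least. It was at 26.5, 26.6 and 29.7 CPM without stimulus and at 34.7, 42.0 and 36.0 CPM with IFN-γ, groups that did not overlap but whose difference of 0.45 (95% interval 0.03 to 0.86) did not pass the adjusted threshold (adjusted p = 0.0956).

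Tgtp1 and Tgtp2, which encode nearly the same effector, were both read at very few counts. The 3 unstimulated libraries held 1, 1 and 2 counts of Tgtp1 and 4, 1 and 4 counts of Tgtp2. With IFN-γ they held 3, 7 and 4 counts of Tgtp1 and 9, 12 and 10 counts of Tgtp2, so that both genes were higher in all 3 libraries than in any unstimulated library. For Tgtp1 the ratio of IFN-γ to unstimulated was 4.44, with a 95% counting interval of 1.39 to 18.5. Tgtp2 passed the test with a log2 fold change of 2.09 (SE 0.50, adjusted p = 0.00367), but it had to differ in level to be tested. With the pair summed to 1 gene, the log2 fold change was 2.11 (adjusted p = 4.17e-04). Intervals and floors cover counting error only.

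In total, IFN-γ raised 8 of the 9 IRG genes tested (15.6% of all 9883 genes tested were higher), and the ninth, Gm4951, passed in neither direction (16.0% of all genes were lower). Their median log2 fold change was 2.09 against -0.03 over all genes, and the 8 calls held without any 1 of the 12 libraries. Leaving aside Tgtp2 and Gm12185, which had to differ to be tested, 6 of 7 were higher, with a median of 1.30. With all 6 unstimulated libraries taken as one group, Ifi47 was no longer called (log2 fold change 0.60, adjusted p = 0.0985).

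**Figure D2:**
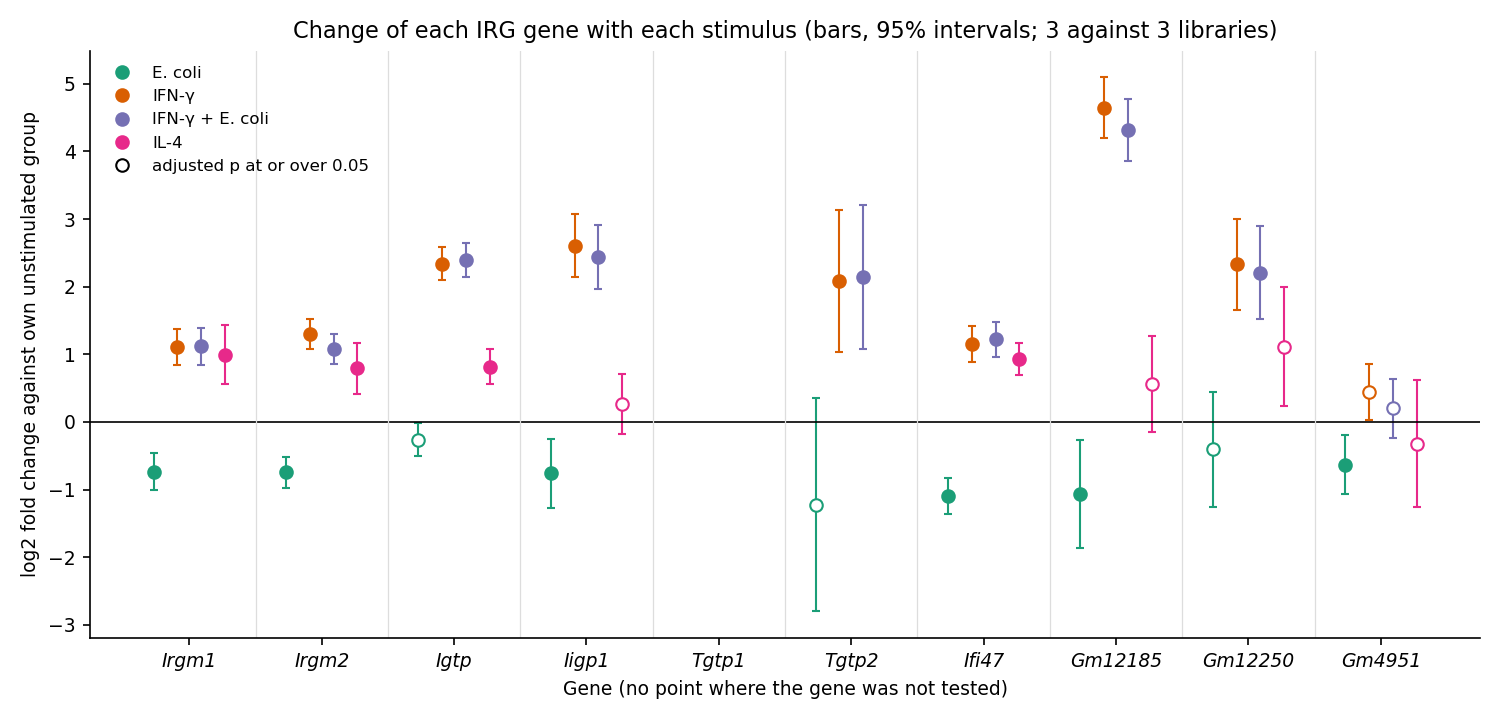
Log2 fold change (vertical axis) of each tested IRG gene with each stimulus against the 3 unstimulated libraries of its own set, with 95% intervals; open points did not pass an adjusted p of 0.05. Gm12185 stands highest, at 4.65 with IFN-γ, and the points for E. coli lie below 0, from -1.22 to -0.26.

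With heat-inactivated E. coli alone, some IRG genes were lower. Irgm1 was at 141, 117 and 97.3 CPM with E. coli, and Irgm2 at 127, 118 and 128 CPM. For both regulators every E. coli library was below every unstimulated library, and both fell by 0.74 on the log2 scale (SE 0.13, adjusted p = 3.06e-04 for Irgm1, and SE 0.11, adjusted p = 4.22e-05 for Irgm2). Igtp, at 230, 208 and 250 CPM, also lay below its unstimulated values, but its difference of -0.26 (95% interval -0.51 to -0.02) did not pass the test (adjusted p = 0.0993). The largest fall that held under every omission of a library was in an effector: Ifi47 was at 314, 309 and 408 CPM, under the 709 CPM of its lowest unstimulated library. Its log2 fold change was -1.10 (SE 0.13, adjusted p = 2.75e-06).

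Another 3 effectors were called lower with less margin. Iigp1 was at 33.9, 36.4 and 76.5 CPM with E. coli, and E. coli library 3 lay within the range of the unstimulated libraries (log2 fold change -0.76, SE 0.24, adjusted p = 0.0241). Gm12185 was at 0.816, 3.34 and 2.96 CPM, only 2 to 10 counts, with a log2 fold change of -1.06 (SE 0.38, adjusted p = 0.0424). Gm4951 was at 12.6, 19.7 and 21.2 CPM, with a log2 fold change of -0.63 (SE 0.21, adjusted p = 0.0280). For the latter 2 genes the groups did not overlap. Gm12250 (5.71 to 11.4 CPM; log2 fold change -0.41, adjusted p = 0.492) overlapped its unstimulated range. Tgtp2, with 2, 0 and 2 counts, had a ratio of 0.398 with a counting interval of 0.0895 to 1.43, and Tgtp1, with 0, 1 and 0 counts, was at the floor in both groups.

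So 6 of the 9 tested genes were lower with E. coli (16.7% of all genes tested were), and no tested gene of the family had a positive log2 fold change (13.5% of all genes were called higher). The median log2 fold change was -0.74 against -0.02 over all genes. These calls were of unequal strength. Irgm1, Irgm2 and Ifi47 passed without any 1 of the 12 libraries. Iigp1 lost its call without unstimulated a (adjusted p = 0.102), unstimulated c (0.105), E. coli 1 (0.134) or E. coli 2 (0.137), and its log2 fold change reached -1.20 without E. coli 3. Gm4951 lost it without unstimulated a (0.0594), b (0.0504), c (0.0926) or E. coli 1 (0.159), and by DESeq2 (0.0817). Gm12185 lost it by DESeq2 (0.0780), with no filter on low counts (0.0740), when only the 6 compared libraries were fitted (0.0924), and without unstimulated b (0.0790), unstimulated c (0.159), E. coli 1 (log2 fold change -0.66, adjusted p = 0.262), E. coli 3 (0.0518), IFN-γ 1 (0.0519), IFN-γ 2 (0.0553), IFN-γ 3 (0.0518) or IFN-γ with E. coli 2 (0.0502). Measured against all 6 unstimulated libraries as one group, Irgm1 (-0.06, adjusted p = 0.933), Irgm2 (-0.29, adjusted p = 0.450) and Gm4951 (-0.01, adjusted p = 0.990) did not pass.

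Markers of other cells moved in this comparison too. The 10 macrophage markers summed to 973, 840 and 964 CPM in unstimulated a to c and to 659, 605 and 964 CPM with E. coli, with Csf1r as the most abundant gene (379 and 387 CPM on average) and no marker at 0 in all libraries of a group. Of these 10, 4 were lower with E. coli. The 6 B cell markers summed to 89.1, 92.5 and 53.7 CPM without stimulus and to 26.1, 19.7 and 32.6 CPM with E. coli, with Cd79a as the most abundant, and all 4 that were tested were lower. The 10 neutrophil markers summed to 625 CPM on average without stimulus and 454 CPM with E. coli, of which the resistin-like gene Retnlg made up 584 and 287 CPM, while Ltf was at 0 in the unstimulated libraries and Elane in the E. coli libraries. Of the 4 neutrophil markers tested, Retnlg was lower and 2 others higher with E. coli, with a median log2 fold change of 0.67. With IFN-γ the macrophage markers summed to 1252, 1204 and 1153 CPM (3 of 10 higher, 2 lower), the B cell markers to 38.6, 29.2 and 28.8 CPM (3 of 4 tested lower) and the neutrophil markers to 688 CPM on average (2 of 4 tested higher, 1 lower), with Elane, Ltf and Mpo at 0. The part of these cells in the IRG results was not tested. T and NK cell, mast cell, dendritic cell and mesothelial markers summed to at most 19.2 CPM on average in these 3 groups, with Cd8a and Klrb1c at 0 in each of the 3 groups. Among them, mast cell markers summed to 8.45 CPM without stimulus, 17.1 CPM with E. coli and 19.2 CPM with IFN-γ. Of the 2 mast cell markers tested, 1 was higher with IFN-γ (median 1.27) and 0 were called with E. coli. The part of mast cells was not tested either.

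When IFN-γ and E. coli were given together, most IRG genes were again above their unstimulated levels. Irgm1 was at 460, 421 and 404 CPM, Irgm2 at 455, 431 and 430 CPM, and Igtp at 1515, 1305 and 1533 CPM. Every one of these libraries was above every unstimulated library. Among the effectors, Iigp1 was at 379, 527 and 413 CPM, Ifi47 at 1839, 1571 and 1717 CPM, and Gm12185 at 116, 96.4 and 96.3 CPM. Gm12250 was spread the most relative to its mean, at 47.5, 71.8 and 28.4 CPM, with library 3 again the lowest. Tgtp2 held 7, 11 and 11 counts, and Tgtp1 held 5, 5 and 6 counts, a ratio to unstimulated of 5.67 with a counting interval of 1.83 to 23.3.

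Against unstimulated cells, 8 of the 9 tested genes were higher with both stimuli (23.9% of all genes tested were). The exception was again Gm4951, at 29.2, 40.0 and 25.1 CPM, overlapping the unstimulated range (log2 fold change 0.20, 95% interval -0.23 to 0.63, adjusted p = 0.443), in a comparison in which 25.2% of all genes were lower. The log2 fold changes of the 8 ran from 1.08 for Irgm2 to 4.32 for Gm12185, and the median over the 9 was 2.15 against -0.04 over all genes. Without Tgtp2 and Gm12185, 6 of 7 were higher, with a median of 1.22. This comparison shares its unstimulated libraries with those of E. coli and of IFN-γ alone, so their values stand side by side and are not independent of each other. In it 2 of 2 mast cell markers tested were higher, and 2 were higher and 2 lower among both the 10 of macrophages and the 4 of neutrophils. The highest mast cell marker in unstimulated a to c was at 3.17 to 4.84 CPM, under the filter's median cutoff of 5.06 CPM. The 2 mast cell markers therefore passed the filter through stimulated libraries, which favours a rise.

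The direct comparison of both stimuli with IFN-γ alone called 0 of the 9 genes by edgeR and 0 by DESeq2, where 12.2% of all genes tested were called in either direction at the adjusted threshold. At an unadjusted p under 0.05 in edgeR, 2 of the 9 passed. The share of all genes at that looser threshold was not computed, so this count is a description only. These 2 were Irgm2, with a log2 fold change of -0.22 (95% interval -0.44 to -0.00437, adjusted p = 0.185), and Gm12185, with -0.33 (95% interval -0.64 to -0.03, adjusted p = 0.158). In both, the 3 libraries with both stimuli lay below the 3 with IFN-γ alone, which is also a description only. The intervals ran from -0.26 to 0.27 for Irgm1, -0.18 to 0.29 for Igtp and -0.19 to 0.32 for Ifi47. They were wider for Iigp1 (-0.60 to 0.26), Gm4951 (-0.67 to 0.18), Gm12250 (-0.69 to 0.45) and Tgtp2 (-0.79 to 0.91), so differences within these bounds could not be detected. Igtp (2075 to 2528 counts) and Ifi47 (2518 to 2894) were near the apparent ceiling in both groups, which can hide a difference. With counts corrected for it, their intervals were -0.22 to 0.23 and -0.25 to 0.23.

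Set against E. coli alone, adding IFN-γ raised all 9 genes tested (17.5% of all genes tested were higher), with log2 fold changes from 0.83 for Gm4951 (SE 0.21, adjusted p = 0.00577) to 5.38 for Gm12185 (SE 0.24, adjusted p = 8.93e-12). Leaving aside Tgtp2 and Gm12185, which had to differ to be tested, 7 of 7 were higher, up to 3.20 for Iigp1. Gm4951 lost its call without library 2 of the group with both stimuli (log2 fold change 0.60, adjusted p = 0.0694). Tgtp1, which did not pass the filter, had 16 counts against 1, a ratio of 25.4 with a counting interval of 3.94 to 1064. With no filter on low counts Tgtp1 was called higher here (adjusted p = 4.99e-04), for both stimuli against unstimulated (0.0154) and for IFN-γ against E. coli (0.00305), and DESeq2 called it in the latter 2 comparisons (0.0401 and 0.0181). IFN-γ alone was above E. coli alone for the same 9 genes (14.1% of all genes tested were higher), from 1.08 for Gm4951 to 5.71 for Gm12185, and 7 of 7 without Tgtp2 and Gm12185. Markers of other cells were higher too. With both stimuli against E. coli these were 4 of 4 tested for B cells (median 1.48), 2 of 2 for mast cells (2.06), 4 of 10 for macrophages (0.73) and 1 of 4 for neutrophils, where 1 was lower. With IFN-γ against E. coli they were 6 of 10 for macrophages (0.98), 1 of 4 for B cells and 2 of 4 for neutrophils, where 1 was lower. The part of these cells was not tested.

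Whether E. coli acted differently in the presence of IFN-γ was tested as an interaction. For Ifi47, the change with E. coli was -1.10 without IFN-γ and 0.07 with it, an interaction of 1.16 on the log2 scale (SE 0.18, adjusted p = 7.19e-04). That call held without any 1 of the 12 libraries. For Irgm1 the change was -0.74 without IFN-γ and 0.00378 with it, an interaction of 0.74 (SE 0.18, adjusted p = 0.0230). It was lost without unstimulated a (adjusted p = 0.0561), unstimulated c (0.0707), E. coli 2 (0.0730), IFN-γ 2 (0.0549), IFN-γ 3 (0.0725), or library 1 (0.0594) or 2 (0.0537) of the group with both stimuli. Irgm2 fell just short (0.52, SE 0.15, adjusted p = 0.0546), but passed by DESeq2 (adjusted p = 0.0486), without unstimulated a (0.0393) and with at least 10 counts in every library (0.0293). Iigp1, with 0.59 (adjusted p = 0.372), passed without E. coli 3 (1.02, adjusted p = 0.0181). So 2 of the 9 tested genes had a positive interaction (2.58% of all genes tested did). For B cell markers all 4 tested had a positive interaction as well, with a sum of 57.7, 74.0 and 64.0 CPM with both stimuli, while the macrophage markers summed to 1008, 1067 and 1232 CPM there (1 of 10 with a positive interaction). Mast cell markers summed to 58.5 CPM on average with both stimuli against 19.2 CPM or less in the other 3 groups, with the protease gene Cma1 the most abundant and Mcpt4 at 0. The part of these cells in the interaction was not tested.

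IL-4, a type 2 cytokine, also raised IRG transcripts, mainly those of the regulators and Ifi47. Irgm1 was at 55.5, 35.0 and 32.7 CPM in unstimulated d, e and f and at 85.6, 79.9 and 77.8 CPM in the 3 IL-4 libraries. Irgm2 was at 69.7, 66.1 and 92.1 CPM without stimulus and at 119, 119 and 158 CPM with IL-4. Igtp was at 240, 251 and 248.8 CPM and at 397, 434 and 475 CPM. For all 3 regulators the groups were separated, with log2 fold changes of 1.00 (SE 0.20, adjusted p = 0.0103) for Irgm1, 0.79 (SE 0.17, adjusted p = 0.0159) for Irgm2 and 0.82 (SE 0.11, adjusted p = 0.00166) for Igtp. Ifi47 rose from 1092, 1035 and 1202 CPM to 2095, 2072 and 2199 CPM. This was a log2 fold change of 0.94 (SE 0.11, adjusted p = 4.84e-04), again with no overlap.

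The other effectors tested did not pass with IL-4. Iigp1 was at 94.4, 65.4 and 122 CPM without stimulus and at 104, 114 and 121 CPM with IL-4, overlapping groups with a log2 fold change of 0.27 (95% interval -0.18 to 0.71, adjusted p = 0.447). Gm12185 was at 3.64 to 3.96 CPM and at 4.93 to 6.85 CPM (0.56, adjusted p = 0.302), and Gm12250 at 1.99 to 6.39 CPM and at 7.42 to 10.6 CPM (1.12, adjusted p = 0.108). These 2 genes did not overlap between groups, which is a description only, since the share of all genes is not given. Gm12250 passed the filter only through the IL-4 libraries, so it had to differ in level to be tested. With no filter on low counts it was called higher (1.10, adjusted p = 0.0366). Gm4951 was at 8.89, 2.98 and 10.004 CPM and at 4.67 to 6.28 CPM (-0.32, adjusted p = 0.681). Tgtp1 had 3, 2 and 0 counts in unstimulated d, e and f and 1, 2 and 0 with IL-4, and Tgtp2 had 1, 7 and 5 against 6, 3 and 0, too few for a test.

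Thus 4 of the 8 tested genes were higher with IL-4 (5.97% of all 10556 genes tested were higher and 4.35% lower), with a median log2 fold change of 0.81 against 0.00057 over all genes. Leaving aside Gm12250, which had to differ to be tested, 4 of 7 were higher, with a median of 0.79. Without library e the same 4 genes were called, with log2 fold changes of 0.90 for Irgm1, 0.69 for Irgm2, 0.83 for Igtp and 0.88 for Ifi47 (adjusted p at most 0.00833), while Iigp1 (0.05, adjusted p = 0.866), Gm12185 (0.52, adjusted p = 0.434), Gm12250 (0.73, adjusted p = 0.159) and Gm4951 (-0.72, adjusted p = 0.141) did not pass. Irgm1 lost its call without IL-4 library 1 (adjusted p = 0.0613) or 2 (0.0523), and Irgm2 without IL-4 library 3 (0.0841). The Irgm1 result also depended on which unstimulated libraries were used: against all 6 as one group its log2 fold change was -0.20 (adjusted p = 0.784) and that of Irgm2 was 0.20 (adjusted p = 0.623). In this set 4 of 10 macrophage markers were lower with IL-4 (summed level 2075, 2390 and 2680 CPM in unstimulated d, e and f and 1892, 1808 and 2089 CPM with IL-4, with C1qc highest on average), 2 of the 3 B cell markers tested were higher (7.50, 5.80 and 14.9 CPM against 20.2, 20.6 and 32.7 CPM), and neutrophil markers summed to 1877 CPM on average without stimulus and 806 CPM with IL-4, mostly Retnlg (1855 and 755 CPM). Of the 5 neutrophil markers tested Retnlg was lower and 1 other higher, with a median of 0.38. Dendritic cell markers summed to 5.93 CPM on average without stimulus and 12.98 CPM with IL-4, with Xcr1 the most abundant and 1 of 2 tested higher. Mast cell markers summed to 7.53 and 15.3 CPM, with Tpsb2 the most abundant and neither of the 2 tested past the threshold. No marker of these 5 lists was at 0 throughout a group, and their part in the result was not tested.

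The responses to IL-4 and to IFN-γ, each against its own unstimulated libraries, were compared in a fit of all 18 libraries. The IL-4 response was lower for 5 of the 9 genes tested (14.7% of all genes tested were lower): Gm12185 by -4.12 on the log2 scale (SE 0.35, adjusted p = 1.71e-08), Tgtp2 by -2.65 (SE 0.95, adjusted p = 0.0413), Iigp1 by -2.38 (SE 0.34, adjusted p = 1.72e-05), Igtp by -1.56 (SE 0.16, adjusted p = 1.62e-07) and Irgm2 by -0.54 (SE 0.19, adjusted p = 0.0371). Without Tgtp2, which passed the filter of this fit only through libraries with IFN-γ, 4 of 8 were lower. For Irgm1 the difference was -0.14 (95% interval -0.62 to 0.33) and for Ifi47 -0.25 (95% interval -0.60 to 0.09). Neither of these passed, with library e or without it (-0.25 and -0.31), though with counts corrected for the apparent ceiling Ifi47 did (-0.66, adjusted p = 0.00288). Since the sets differ in kind, cytokine and set cannot be fully told apart in this comparison. Over all 10671 genes tested, the IL-4 response was higher for 1392 and lower for 1572. Of the 8 eosinophil markers tested, it was higher for 4 and lower for 1. Of the markers of other cells tested, the IL-4 response was higher for 3 of 4 of B cells, 2 of 10 of macrophages and 1 of 5 of neutrophils. It was lower for 4 of 10 of macrophages and 3 of 5 of neutrophils. The part of these cells was not tested.

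Igtp, Iigp1 and Gm12185 kept this difference without any 1 of the 18 libraries, but the remaining calls shifted. Without library e, Tgtp2 was not called (adjusted p = 0.132), while Gm12250 (-1.63, adjusted p = 0.0214) and Gm4951 (-1.20, adjusted p = 0.00932) were, against -1.22 (adjusted p = 0.0986) and -0.77 (adjusted p = 0.192) with it. Irgm2 kept its call without library e (-0.65, adjusted p = 0.0126) but lost it without unstimulated a (0.112), unstimulated c (0.0546), unstimulated f (0.125), IFN-γ 2 (0.0519), IFN-γ 3 (0.0774), IL-4 1 (0.0947) or IL-4 2 (0.0920), and with no filter on low counts (0.0779). Tgtp2, besides library e, lost it without unstimulated a (0.0752), b (0.0815), c (0.0562) or f (0.0773), E. coli 1 (0.0508), IFN-γ 1 (0.0535), 2 (0.0704) or 3 (0.0774), IL-4 2 (0.0843) or 3 (0.0737), or library 1 (0.05004) or 2 (0.0532) of the group with both stimuli. It was also lost by DESeq2 (0.0706) and with no filter (0.0781), where Gm12250 was called (0.02002).

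Another 5 genes of the family, not among the 10, gave a like range. Irgc1, which belongs to testis, had at most 1 count in any library. Irgq, a member without a working GTPase domain, was at 8.58 to 15.5 CPM on average in the 6 groups and passed in none of the comparisons. Gm4841 and F830016B08Rik, neighbours of Iigp1 and Gm4951 on chromosome 18, rose with IFN-γ by 2.84 (SE 0.28, adjusted p = 3.89e-07) and 2.41 (adjusted p = 3.23e-05). Gm5431, next to Gm12185, was at 53.3 ± 6.04 CPM (SD, n = 3) without stimulus, at 17.8 ± 3.46 with E. coli and at 91.0 ± 16.5 with IFN-γ. It fell by 1.58 with E. coli (adjusted p = 4.38e-06), rose by 0.78 with IFN-γ (adjusted p = 0.00136), and was lower with both stimuli than with IFN-γ alone (-0.62, adjusted p = 0.0197). With IL-4 the 4 genes tested had log2 fold changes from -0.30 for Irgq to 0.56 for F830016B08Rik and did not pass (adjusted p of 0.176 or more).

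Genes that carry the IFN-γ signal to the IRG promoters moved in part with the family. Of 10 genes of this pathway, 5 were higher with IFN-γ (15.6% of all genes were), among them the transcription factors Irf1 (2.08, adjusted p = 2.47e-11) and Irf8 (1.88, adjusted p = 3.32e-05), the signal inhibitor Socs1 (1.34, adjusted p = 1.50e-07) and Stat2 (0.38, adjusted p = 0.0109), with a median over the list of 0.26. With E. coli 4 were lower (among them Stat2 -0.95, Irf1 -0.76 and Jak2 -0.32) and 2 higher (Socs1 0.77 and the receptor chain Ifngr2 0.57), beside 16.7% and 13.5% of all genes, with a median of -0.17. With IL-4 6 were higher, beside 5.97% of all genes, led by Socs1 (1.52, adjusted p = 9.61e-05) and Irf1 (0.97, adjusted p = 7.82e-04), and including Stat2 (0.78), Jak2 (0.57) and Ifngr1 (0.56), with a median of 0.57. The lowest value with IL-4 was in Irf8 (-0.60, not called). Under both stimuli 6 were higher, led by Irf1 (2.04), and Ifngr1 was lower (-0.56, adjusted p = 0.00684), beside 23.9% and 25.2% of all genes, with a median of 0.41. Irf1 itself was found at 290, 322 and 324 CPM in unstimulated a to c, 178, 183 and 191 CPM with E. coli and 1315, 1293 and 1352 CPM with IFN-γ. The 3 groups were fully separated.

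Some transcripts of the autophagy proteins that place IRGs on vacuoles changed. Of 10 ATG8 conjugation genes, 2 were lower with E. coli (Gabarapl1 -0.56 and Map1lc3b -0.50), where 16.7% of all genes were, and 3 were higher with IFN-γ (Gabarapl1 0.56, Gabarap 0.45 and Atg12 0.40), where 15.6% of all genes were. With both stimuli 5 were higher, led by Map1lc3a (0.84, adjusted p = 0.0204), against 23.9% of all genes, and 3 were lower with IL-4 (Gabarapl1 -0.79, Atg3 -0.64 and Atg7 -0.63), beside 4.35% of all genes. The medians over the list were -0.03, 0.29, 0.42 and -0.05. Of 3 factors recruited to IRG-coated vacuoles, all were higher with IFN-γ, beside 15.6% of all genes: the ubiquitin ligases Trim21 (0.89) and Traf6 (0.60) and the adaptor Sqstm1 (0.74). The same 3 were higher with both stimuli, beside 23.9% of all genes, led by Sqstm1 (1.38, adjusted p = 2.44e-08). With IL-4, Trim21 was higher (0.70) and Sqstm1 lower (-0.78), beside 5.97% and 4.35% of all genes. With E. coli Sqstm1 was higher (0.37) and Trim21 lower (-0.40), beside 13.5% and 16.7%.

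The other interferon-inducible GTPases include the guanylate-binding proteins (GBPs), which attack the same vacuoles. Of 15 listed, 13 were tested in the 12-library set, and 10 of these were higher with IFN-γ, led by Gbp4 (3.54, adjusted p = 4.87e-12) and Gbp8 (3.53, adjusted p = 9.66e-11), with a median of 1.56 and the lowest value in Gvin1 (-0.38, not called), beside 15.6% of all genes higher. Without IFN-γ, Gbp2b and Gbp11 were at no more than 3.30 and 1.49 CPM, under the filter's median cutoff of 5.06 CPM. They passed the filter only through libraries with IFN-γ and had to differ in level there. The counts and medians of this list include them. With E. coli 8 of 13 were lower, beside 16.7% of all genes, among them Gbp8 (-2.44, adjusted p = 5.92e-06), the antiviral gene Mx1 (-1.65, adjusted p = 5.80e-06), Gbp7 (-1.15) and Gbp9 (-1.10), with the highest value in Gbp5 (0.08, not called). Gbp2b, which had no count in any E. coli library and 15 counts in unstimulated a to c, was at least 1.66-fold lower against a floor of 3 counts a library, and the median of the list was -0.76 with Gbp2b at this bound. With both stimuli 9 of 13 were higher, beside 23.9% of all genes, led by Gbp4 (3.49), with a median of 1.503 and the lowest value in Gbp2b (-1.02, not called). In the IL-4 set 12 were tested and 4 were higher, beside 5.97% of all genes, namely Gbp8 (1.49), Gbp7 (1.43), Gbp9 (0.92) and Gbp4 (0.86), with a median of 0.62.

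The genes whose pattern was most like that of the IRGs were sought over the 12-library set. The pattern was the mean of the standardized log2 levels of the 9 tested IRG genes, with which each of these correlated at r = 0.84 (Gm4951) to 0.99 (Iigp1). The 10 closest other genes included Irf1, Whamm, Il18bp, Tap2, Scpep1, Tmem140, Lair1, Gbp2 and Tap1, with Pearson's r from 0.992 for Irf1 to 0.983 for Tap1. The 12 libraries fall into groups by stimulus, which these r values share, so they are a description. In the same libraries, where the choice itself favours these directions, all 10 were lower with E. coli (from -0.40 for Whamm to -1.43 for the inhibitory receptor Lair1) and higher with IFN-γ (from 0.87 for Whamm to 3.83 for Lair1). In the IL-4 set, which took no part in the choice, Irf1 (0.97) and the peptide transporter genes Tap2 (0.80) and Tap1 (0.70) were higher, and Whamm, Il18bp, Scpep1, Tmem140, Lair1 and Gbp2 were not called.

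Of the 10 IRG genes, 8 lie in clusters on chromosome 11 and the other 2 on chromosome 18 (GRCm38, GENCODE annotation). Irgm1 (chr11:48861968-48871683), Gm12185 (chr11:48904656-48992226), Tgtp1 (chr11:48985327-48994172) and Tgtp2 (chr11:49057194-49064206) follow each other on the reverse strand, and Ifi47 (chr11:49076587-49096974) comes next on the forward strand. Gm12250 (chr11:58187739-58189012), Igtp (chr11:58199556-58207591) and Irgm2 (chr11:58199618-58222782) form another cluster on the forward strand. Gm4951 (chr18:60212080-60247820) and Iigp1 (chr18:60376027-60392634) are on the forward strand of chromosome 18. The size of the response to IFN-γ was unlike in some genes of a cluster and alike in others. In the first cluster the log2 fold changes were 1.11 for Irgm1, 4.65 for Gm12185, 2.09 for Tgtp2 and 1.15 for Ifi47. They were 2.33 for Gm12250, 2.34 for Igtp and 1.30 for Irgm2 in the other, and 0.45 for Gm4951 and 2.61 for Iigp1 on chromosome 18.

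**Figure D3:**
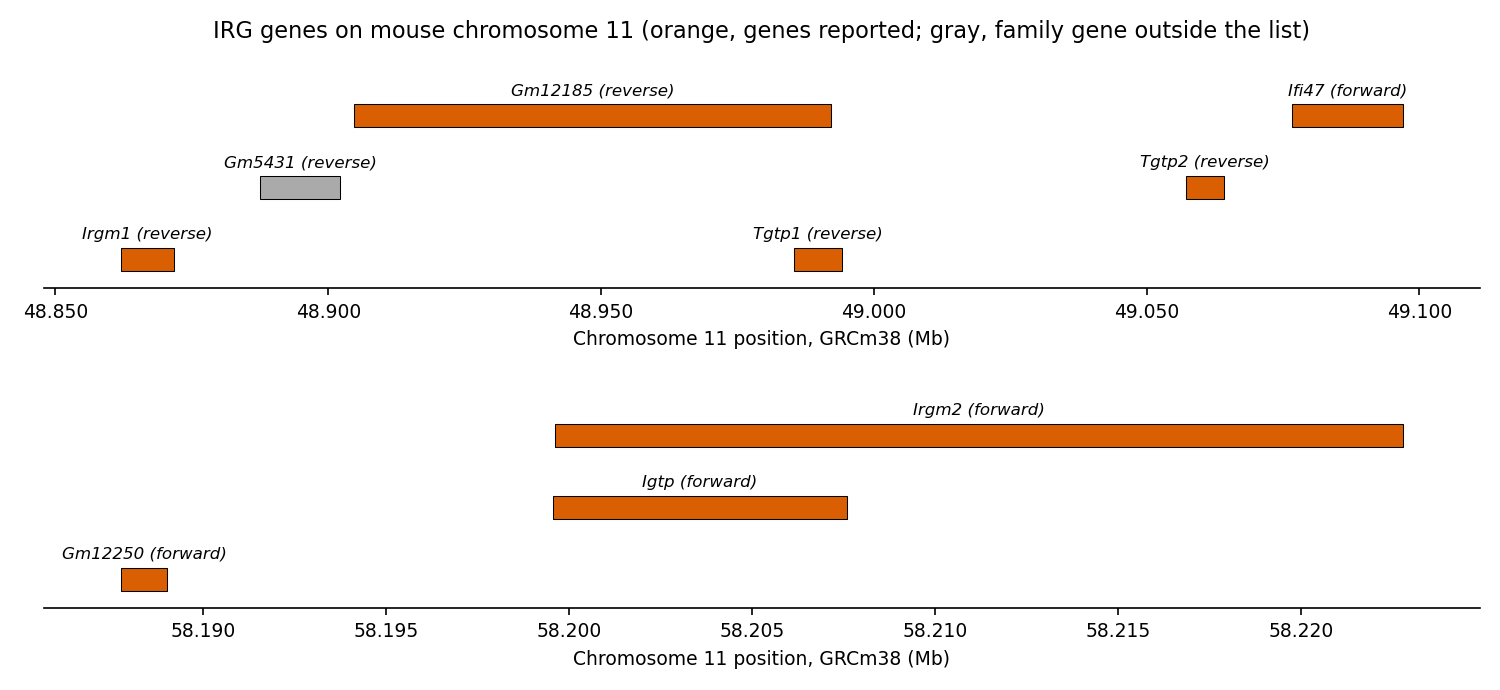
Position (GRCm38, Mb) of the 8 IRG genes on chromosome 11 in orange, with Gm5431 in gray, each drawn to scale from its annotated start to its end and marked with its strand. Igtp and Irgm2 begin close together and overlap, as do Gm12185 and Tgtp1.

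This arrangement limits how reads can be assigned. Transcripts of Tgtp1 and Tgtp2 were 99.8% identical over 2811 aligned bases, with 6 mismatches, and only uniquely mapped reads were counted, so the low counts of both genes are uncertain and may miss most of their reads. Gm12185 shares 223 exon bases with Tgtp1 and was 95.8% identical to Gm5431 over 1701 bases. Igtp and Irgm2 share 162 exon bases on the same strand, Ifi47 shares 111 with Olfr56 on the same strand and 106 with the pseudogene Gm12188 on the other strand, and strand-specific counting is not stated in the sources used here. Gm12250 is annotated as a processed pseudogene that ends 1186 bases before the RefSeq gene does, so reads at the end of its transcript may have been left out. Gm4951 and F830016B08Rik are annotated to end 620 and 807 bases before their RefSeq genes do, so their reads may have been left out in the same way. Among the other genes named, Mx1, Gbp4, Gbp6, Gbp7, Gbp8, Gbp9, Gvin1, Trim21, Map1lc3b, Gm5431 and F830016B08Rik were at least 95% identical to another gene over 200 bases or more. Gbp7, Gbp6, Gabarapl1, Sqstm1, Tmem140, Irf1, Tap1 and Tap2 are among those that overlap exons of another gene, and the values of all these genes are uncertain to that extent.

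Because most IRG genes moved together with IFN-γ, their promoters were read for the letters of an interferon-stimulated response element core, GAAANNGAA, bound by IRF factors, and of a gamma-activated site, TTCNNNGAA. Both strands were searched in windows from 250 bases before to 50 bases after the gene start (RefSeq, GRCm38.p6). Windows for 8 of the 10 genes were matched. The response element core was found in 7 of the 8 and the gamma-activated site in 6, against 8.56% and 8.30% of all 32851 windows. Both occurred in 6 of the 8, against 1.07% of all windows. In 5 genes (Irgm2, Igtp, Tgtp1, Tgtp2 and Gm12185) the order and distance were the same, with the gamma-activated site first and 2 bases between it and the response element core. In Irgm1 a pair of response element cores overlapped, at 30 and 24 bases before the start, and no gamma-activated site was matched. The Ifi47 window matched neither motif, which says only that these letters are not in that window. The 100 bases before the start are shown for 6 genes, 5' to 3' on the gene's strand, to show this arrangement, with matched letters of either motif in capitals:
Irgm2: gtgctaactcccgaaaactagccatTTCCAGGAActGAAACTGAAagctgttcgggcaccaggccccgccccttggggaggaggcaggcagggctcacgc
Igtp: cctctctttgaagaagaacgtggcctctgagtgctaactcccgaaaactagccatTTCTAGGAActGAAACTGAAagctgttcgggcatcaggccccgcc
Tgtp2: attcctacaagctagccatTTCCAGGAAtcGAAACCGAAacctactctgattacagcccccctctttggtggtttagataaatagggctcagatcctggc
Gm12185: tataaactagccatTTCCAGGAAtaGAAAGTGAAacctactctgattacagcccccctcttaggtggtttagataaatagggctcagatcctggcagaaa
Gm12250: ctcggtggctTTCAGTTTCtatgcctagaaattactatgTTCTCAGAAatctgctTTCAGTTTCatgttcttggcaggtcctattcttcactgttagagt
Ifi47: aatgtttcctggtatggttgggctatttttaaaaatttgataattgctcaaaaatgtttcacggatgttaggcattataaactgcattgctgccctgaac

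These stretches lie at chr11:58214877-58214976 for Irgm2, chr11:58199456-58199555 for Igtp, chr11:49064213-49064312 for Tgtp2, chr11:48927183-48927282 for Gm12185, chr11:58183743-58183842 for Gm12250 and chr11:49076487-49076586 for Ifi47. The RefSeq starts used for the windows differ from the starts in the GENCODE positions above for Irgm1, Irgm2, Tgtp1, Tgtp2, Gm12185 and Gm12250. The Irgm2 and Igtp stretches share a run of 29 identical bases and those of Tgtp2 and Gm12185 a run of 33. The capitals of Gm12250 read on the opposite strand for both response element cores. A match is a description of letters and was not tested as a binding site.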

How the data were processed

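Bulk RNA of peritoneal eosinophils was measured in 18 libraries. The deposited values are raw counts per gene, and 5 summary lines of the first set (21.1% to 39.4% of its counts) were left out. The study describes CEL-Seq2 libraries from 2 ng RNA, alignment with TopHat2 (at most 2 mismatches, uniquely mapped reads) and HTSeq counting. The submitters' processing notes name fastp 0.20.1, STAR 2.7.2a, TopHat2 2.1.0, HTSeq 0.6.1 and build GRCm38, and the labels name both a CEL-Seq library and a HiSeq experiment, without saying which samples each concerns. Whether molecular identifiers were collapsed is not given in the sources used here.

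Within each set, genes were filtered with filterByExpr, scaled by TMM and tested with edgeR 4.0.16 (glmQLFit, glmQLFTest, two-sided, R 4.3.3). A gene was called at a Benjamini-Hochberg adjusted p under 0.05 over all genes tested, with no fold threshold. The 12 libraries with E. coli and IFN-γ made one fit, the 6 of the IL-4 set another, and all 18 another for the difference of responses. Standard errors were derived from F, and 95% intervals are approximate. The script was tested on simulated data. DESeq2 1.42.0, other filters, a 2-fold threshold, fits without each library and a replicate block were alternatives. Named genes were the 10 members, 5 further family genes, fixed lists, markers, and the 10 genes most like the members. List examples were the largest rise and fall among called genes and up to 4 genes past 2-fold. A few others were named after their values were seen. Members and lists were chosen with earlier results of these data known.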

Additional observations from a re-analysis of the deposited data

Results flagged for a closer look

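The effect of E. coli on 2 genes differed between cells with and without IFN-γ by the test of the interaction. For Ifi47 the log2 fold change with E. coli was 1.16 higher with IFN-γ than without it, and for Irgm1 it was 0.74 higher. Why these effects differed was not tested. The call for Ifi47 held in all 12 fits that left out 1 library, and that for Irgm1 in 5 of the 12.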

How the results depend on the processing

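Of 1531 log2 fold changes of single genes recomputed under the alternatives, each left-out library included, 1450 stayed on their side of the threshold, 72 lost the call (47 of them without a library) and 9 gained it. The sign changed for 1 called value and for 20 that were called neither before nor after. When at least a 2-fold change was also required, 2 of 6 genes stayed lower with E. coli, 0 of 4 stayed higher with IL-4 (their log2 fold changes were 0.79 to 1.00; by edgeR all 4 and by DESeq2 all 4 had passed without this demand) and 1 of 2 kept the interaction. With all 6 unstimulated libraries as one group, 3 genes were lower with E. coli and 2 higher with IL-4, and Irgm1 with IL-4 went from 1.00 to -0.20 (adjusted p = 0.784); the cause was not tested. Leaving out each library in turn gave 3 to 6 genes lower with E. coli, 1 to 3 with an interaction and 3 to 6 with a lower response to IL-4 than to IFN-γ. With at least 10 counts in every library, 2 genes kept that lower response, since genes with fewer counts were no longer tested and Irgm2 did not pass (adjusted p = 0.0889).

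The libraries share only a number across groups: correlations of same-numbered libraries ran from -0.045 to 0.331. With the number as a replicate block, 8 genes were higher with IFN-γ and 8 with both stimuli than with E. coli, against 9 and 9, since Tgtp2 was not tested there, and no gene's call was lost. Over all genes the block gave 677 higher and 741 lower for both stimuli against IFN-γ, where 618 and 591 were called without it.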
